A study of Mus musculus with 59 samples.

Results

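Small nucleolar RNAs, and the genes named after carrying them, were read from an expression table of mouse embryos cloned by nuclear transfer (SCNT, somatic cell nuclear transfer), where a somatic nucleus replaces that of an oocyte and development is started by activation. A row was taken where its name begins with Snord, Snora, Scarna or Snhg, which gave 134 of 24421 rows. Of these, 119 are small RNAs (74 Snord, 36 Snora and 9 Scarna) and 15 are small nucleolar RNA host genes (Snhg). No measured value entered this choice. The labels give the strain BDF1, name cumulus cells as the donor, and describe oocytes from C57BL/6n females 5 to 7 weeks old. Of the 4 groups used, the untreated 1-cell group was collected 13 to 14 h after activation and the untreated early 2-cell group at 20 to 21 h. The late 2-cell groups were both collected at 33 to 34 h, and one of them had been treated with the histone deacetylase inhibitor trichostatin A (TSA), while the other was untreated. Each group has 5 poly(A) RNA libraries in the labels. All embryos of these groups came from SCNT, and no fertilized embryos were analysed here.

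Small nucleolar RNAs guide the chemical modification of other RNAs. The box C/D RNAs (Snord genes) direct 2′-O-methylation of ribosomal RNA, the box H/ACA RNAs (Snora genes) direct the change of uridine to pseudouridine, and the Scarna genes make related guides that act in Cajal bodies on the RNAs of the spliceosome. In mammals most of them are cut out of the introns of a host gene after splicing, and the mature forms carry no poly(A) tail. Many hosts encode proteins of the ribosome or of translation. The Snhg genes are hosts whose spliced RNA mostly makes no known protein, and the spliced RNA of several of them is known to be removed by nonsense-mediated decay. In mouse embryos the main wave of transcription from the new genome falls at the late 2-cell stage, when the synthesis of ribosomal RNA also resumes.

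Several Snhg genes begin their transcript within a run of C and T, as does the terminal oligopyrimidine tract known from the messenger RNAs of ribosomal proteins. RefSeq windows of 250 bases before to 50 bases after a transcript start (GRCm38.p6) were found for 13 of the 15 Snhg genes, with 14 starts. A run of at least 5 C or T letters that covers the first base was present at 5 of the 14 starts (35.7%), against 10.1% of 32851 starts of all genes. The 5 starts with such a run are shown, with that of Snhg5, the most abundant Snhg gene in both late 2-cell columns, which has none. Each window holds 60 bases before the start and 50 from it, read 5′ to 3′ on the strand of the gene, and capitals mark the run that covers the first base.
Snhg12, chr4:132308618-132308727, plus strand: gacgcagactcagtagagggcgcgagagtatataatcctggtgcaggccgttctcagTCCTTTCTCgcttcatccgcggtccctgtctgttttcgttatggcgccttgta
Snhg18, chr15:32244613-32244722, minus strand: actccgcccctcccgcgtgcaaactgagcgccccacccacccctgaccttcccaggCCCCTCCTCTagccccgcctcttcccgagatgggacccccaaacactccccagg
Snhg8, chr3:123508287-123508396, minus strand: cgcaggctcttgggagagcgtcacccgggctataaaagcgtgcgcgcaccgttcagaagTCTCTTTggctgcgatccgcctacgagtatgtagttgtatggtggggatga
Snhg7, chr2:26640195-26640304, minus strand: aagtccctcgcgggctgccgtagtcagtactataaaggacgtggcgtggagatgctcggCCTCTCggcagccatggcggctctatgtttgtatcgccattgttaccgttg
Snhg17, chr2:158361460-158361569, minus strand: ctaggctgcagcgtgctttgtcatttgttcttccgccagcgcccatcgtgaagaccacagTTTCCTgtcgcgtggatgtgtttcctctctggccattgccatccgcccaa
Snhg5, chr9:88522848-88522957, minus strand: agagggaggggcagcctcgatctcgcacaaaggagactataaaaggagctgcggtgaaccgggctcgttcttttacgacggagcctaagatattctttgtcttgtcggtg

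Searched on both strands of the whole window, the letters TATAAA were present at 42.9% of Snhg starts, against 13.6% of all starts, and CCGGAAG at 28.6%, against 8.86%. The letters CACGTG were present at 7.14% of Snhg starts, against 7.15% of all starts. A place where motifs overlap counted for each of them, and a match describes the sequence only. At 55 starts of protein-coding genes that contain a small RNA of this set, CCGGAAG was present at 29.1% and CACGTG at 21.8%, and the run of C and T at 12.7%. Among ribosomal protein genes that contain one, the run was present at 4 of 17 starts (23.5%). A run counted in this way thus does not by itself identify a terminal oligopyrimidine tract.

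The values are FPKM (fragments per kilobase of transcript, scaled to the fragments of the library), deposited as log2(FPKM + 1), with 1 value per gene and group. The differences below therefore come without replicates, errors or tests, and the sequencing depth is unknown. The column of the 1-cell group is named by 13 h and was matched to that group by the hours in the labels. The 4 columns list between 9419 and 12215 genes at 1 FPKM or more. Of 8 markers of the late 2-cell stage, 7 were at least 2-fold higher in untreated late than in early 2-cell embryos, against 47.9% of all genes. Tcstv1 was at least 2-fold lower, with 36.8 FPKM in untreated late and 203 FPKM in early 2-cell embryos. The 9 oocyte markers summed to 26140 FPKM at the 1-cell stage and 33516 FPKM in early 2-cell embryos. In late 2-cell embryos they summed to 6324 FPKM with TSA and 6018 FPKM without it. Most of each sum was Spin1, at 22919, 30986, 5326 and 4540 FPKM in the same order. Only Spin1 rose from the 1-cell to the early 2-cell stage, while the other 8 fell. From early to untreated late 2-cell embryos, Zp3 and Zp1 rose by 2-fold or more and 3 of the 9 fell by as much. The columns are named below as 1-cell, early, TSA late and untreated late.

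All 15 Snhg genes had a positive value in every column, and 14 reached 1 FPKM in at least 1. Summed over the 15, the level was 76.1 FPKM in 1-cell, 159 FPKM in early, 812 FPKM in TSA late and 934 FPKM in untreated late embryos. The highest column was untreated late for 10 of the 14, TSA late for 3 and early for 1. Snhg5, known as the host of the box C/D RNA U50, stood at 24.6 FPKM in 1-cell, 36.1 FPKM in early, 382 FPKM in TSA late and 361 FPKM in untreated late embryos. Its gene lies at chr9:88521052-88522897. Snhg17, at chr2:158353700-158361522, stood at 1.97 FPKM in 1-cell, 4.08 FPKM in early, 221 FPKM in TSA late and 262 FPKM in untreated late embryos. These 2 genes were the most abundant of the Snhg genes in both late columns, and neither span contains a small RNA of this set. Snhg17 had the larger difference between untreated late and early embryos, at 5.70 on the log2(FPKM + 1) scale, beside 3.29 for Snhg5.

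Snhg4, whose span holds the box H/ACA RNA Snora74a (U19), stood at 7.12 FPKM in 1-cell, 40.6 FPKM in early, 31.0 FPKM in TSA late and 79.1 FPKM in untreated late embryos. Snhg6 had 10.6, 11.4, 31.5 and 48.6 FPKM in the same order. Snhg18 had 15.1, 27.9, 29.1 and 46.5 FPKM in that order. These genes were lower in TSA late than in untreated late embryos, with Snhg4 the furthest apart. Snhg7, which spans Snora17 and Snora43, had 0.75 FPKM in 1-cell, 3.18 FPKM in early, 26.6 FPKM in TSA late and 34.4 FPKM in untreated late embryos. Snhg20 had 1.60, 4.47, 34.7 and 33.7 FPKM in the same order. Snhg3 had 1.00, 4.21, 13.3 and 16.7 FPKM in that order. Each of these was higher at every later untreated stage.

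Lower levels were listed for the rest. Snhg1, the host of Snord22 (U22, a box C/D RNA known in frog oocytes to be needed for making 18S ribosomal RNA), had 1.18 FPKM in 1-cell, 1.61 FPKM in early, 10.3 FPKM in TSA late and 12.3 FPKM in untreated late embryos. Snhg11 had 0.24, 0.99, 6.73 and 9.23 FPKM in the same order. Snhg12, which spans 4 small RNAs, had 0.07, 0.71, 4.30 and 7.92 FPKM in that order. All of them were highest in untreated late embryos. Snhg8 (host of Snora24) had 0.53 FPKM in 1-cell, 1.45 FPKM in early, 3.91 FPKM in TSA late and 5.63 FPKM in untreated late embryos. Snhg9 stayed under 1 FPKM throughout, at 0.03, 0.06, 0.13 and 0.29 FPKM in the same order.

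Snhg10 and Snhg14 were the only Snhg genes that were not higher at every later untreated stage. Snhg10, host of Scarna13, was highest in early embryos, at 8.84 FPKM in 1-cell, 20.8 FPKM in early, 12.6 FPKM in TSA late and 12.7 FPKM in untreated late embryos. Snhg14, the long transcript of the imprinted Snurf-Snrpn locus on chromosome 7, was highest in TSA late embryos, at 2.48 FPKM in 1-cell, 1.55 FPKM in early, 4.75 FPKM in TSA late and 3.17 FPKM in untreated late embryos. It was also the sole Snhg gene lower in early than in 1-cell embryos.

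**Figure D1:**
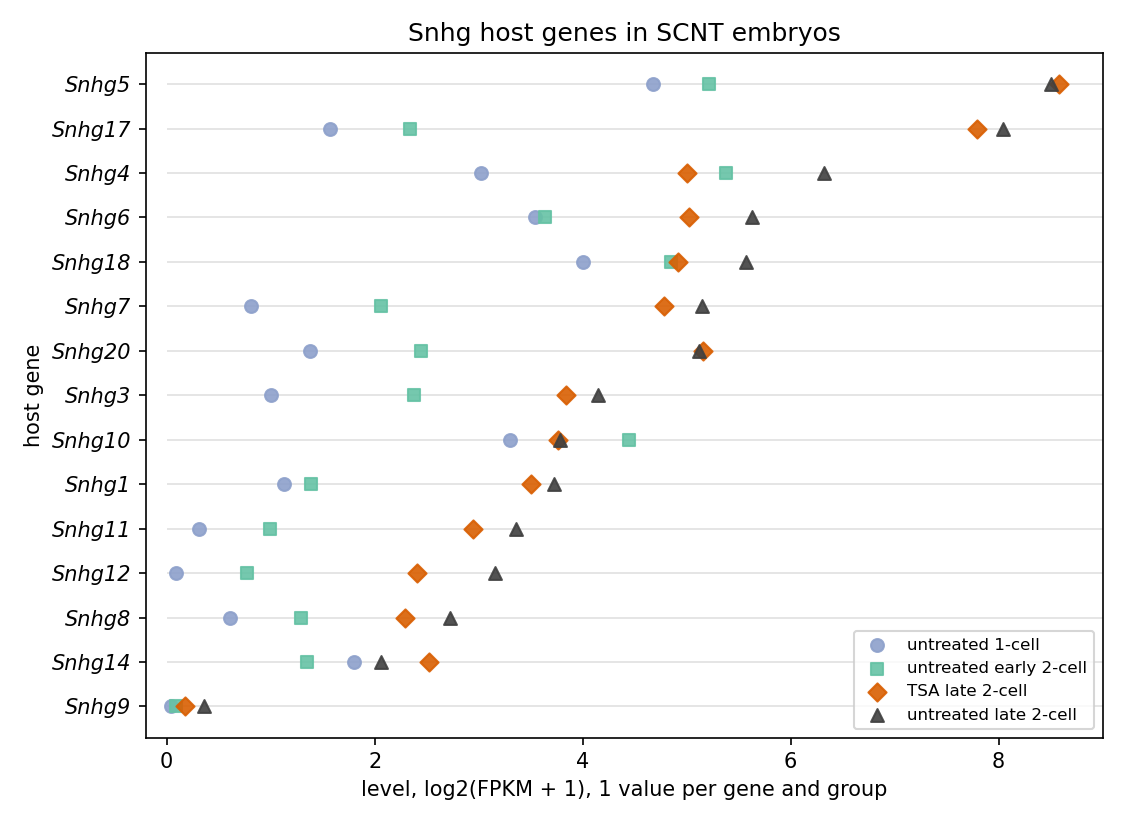
Level of each of the 15 Snhg host genes on the log2(FPKM + 1) scale (horizontal axis), with 1 symbol per group and 1 value per gene and group, ordered by the level in untreated late 2-cell embryos. Snhg5 and Snhg17 stand apart at 361 and 262 FPKM in untreated late embryos, and Snhg10 is highest in early 2-cell embryos at 20.8 FPKM.

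Of the 119 small RNA rows, 18 were listed at 0 in all 4 columns, 37 had positive values under 1 FPKM throughout, 64 reached 1 FPKM in at least 1 column, 28 reached 5 FPKM and 13 reached 10 FPKM. The number at 1 FPKM or more was 7 in 1-cell, 28 in early, 46 in TSA late and 55 in untreated late embryos, and the number listed at 0 was 67, 49, 35 and 28 in the same order. Summed over all 119, the level was 34.4 FPKM in 1-cell, 109 FPKM in early, 408 FPKM in TSA late and 389 FPKM in untreated late embryos. By class, 41 of 74 Snord, 21 of 36 Snora and 2 of 9 Scarna rows reached 1 FPKM. The share of small RNA rows at that level in any column, 53.8%, was close to the 54.9% of all 24421 genes. Of 1211 other genes with a RefSeq span of up to 300 bases, nearly all microRNA genes, 7.93% reached it.

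Among box C/D rows, Snord55 had 0.03 FPKM in 1-cell, 0.18 FPKM in early, 55.3 FPKM in TSA late and 44.5 FPKM in untreated late embryos. Snord42b, within the ribosomal protein gene Rpl23a, had 0.41, 2.97, 43.1 and 24.0 FPKM in the same order. Snord16a, within the ribosomal protein gene Rpl4, had 0.31, 1.19, 12.5 and 16.9 FPKM in that order. All were low in 1-cell embryos and highest in a late 2-cell column, and they differed in which late column was the higher. Snord104 had 1.18 FPKM in 1-cell, 1.75 FPKM in early, 8.56 FPKM in TSA late and 17.1 FPKM in untreated late embryos. Snord12, at chr2:167065293-167065358 within Zfas1 (listed as 1500012F01Rik), had 0, 1.78, 0.68 and 16.2 FPKM in the same order. Snord12 was thus listed at a low level in every column except untreated late.

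Among box H/ACA rows, Snora68 had 0.93 FPKM in 1-cell, 2.23 FPKM in early, 25.8 FPKM in TSA late and 30.0 FPKM in untreated late embryos. Snora64 (within Rps2) had 0.39, 3.70, 24.2 and 29.5 FPKM in the same order. Snora7a (within Rpl32) had 0.89, 5.74, 22.9 and 12.6 FPKM in that order. Rps2 and Rpl32 encode ribosomal proteins. Snora28, within the translation factor gene Eif5, had 0.97 FPKM in 1-cell, 0.70 FPKM in early, 15.4 FPKM in TSA late and 11.3 FPKM in untreated late embryos. Snora70, within Rpl10, had 2.13, 6.14, 13.1 and 9.20 FPKM in the same order.

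Scarna6 and Scarna13 carried nearly all of the Scarna signal. Scarna6 (U88), within the autophagy gene Atg16l1, had 7.97 FPKM in 1-cell, 18.9 FPKM in early, 8.41 FPKM in TSA late and 5.36 FPKM in untreated late embryos, and it was the highest small RNA row in 1-cell and in early embryos. Scarna13 (U93), at chr12:105031075-105031349 within Snhg10, was listed at 0 in 1-cell and early embryos and had 26.8 FPKM in TSA late and 2.22 FPKM in untreated late embryos. The other 7 stayed under 1 FPKM, with Scarna10 (U85, a guide for the U5 RNA of the spliceosome) at most at 0.79 FPKM, Scarna2 at 0.34 FPKM and Scarna3a at 0.22 FPKM. Of the clustered RNAs of the Snurf-Snrpn locus, Snord116, Snord116l1 and Snord116l2 were listed at 0 in all 4 columns, while Snord64 had 0.74 FPKM in 1-cell, 0.29 FPKM in early, 0.54 FPKM in TSA late and 0.40 FPKM in untreated late embryos.

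**Figure D2:**
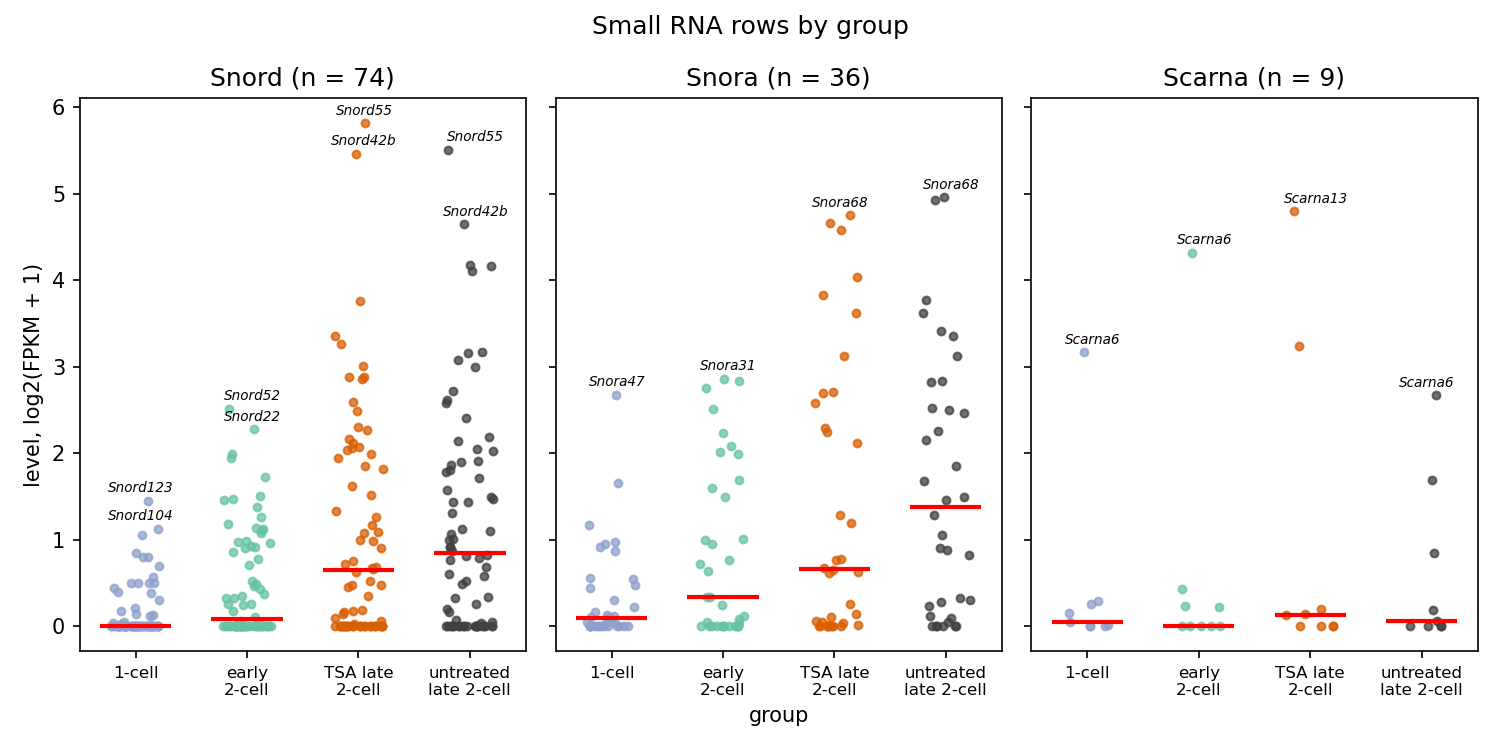
Level of each small RNA row on the log2(FPKM + 1) scale (vertical axis) by group, for 74 Snord, 36 Snora and 9 Scarna rows, with 1 point per row, the median as a red line and the highest rows named. Most points lie near 0 in 1-cell embryos, and Snord55 reaches 55.3 FPKM in TSA late and 44.5 FPKM in untreated late 2-cell embryos.

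The RefSeq spans of the small RNAs ran from 28 to 275 bases (median 82.5), so an FPKM of a few units stands for very few fragments. Multiplied by its span in kilobases, which gives FPM (the same measure without the length), the highest row came to 1.98 FPM in 1-cell, 4.70 in early, 7.36 in TSA late and 3.47 in untreated late embryos. The lowest positive values were very small: Snord98, with a span of 28 bases, was listed at 0.000509 FPKM in early embryos, which equals 1.42e-05 FPM. Between 9 and 16 positive rows per column lay under 0.01 FPM. The share of rows at 1 FPKM or more in some column was 47.8% for spans of up to 60 bases (23 rows), 52.8% for spans of 61 to 99 bases (53 rows) and 59.5% for longer ones (42 rows).

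By position, 115 of the 118 small RNAs with a RefSeq entry lay inside another gene, and for 110 of them that gene, taken as the host, has a row in the table. These 110 fall in 80 hosts, of which 63 are protein-coding. Ribosomal protein genes (with Rack1) held 34 small RNAs in 24 hosts, and the rows named Snhg held 16. The table's values do not separate reads of a small RNA from unspliced or exonic reads of its host over the same bases, and whether the libraries keep strand is not given in the sources used here. The level of the small RNA was below that of its host in 107 of 110 pairs in 1-cell, 106 in early, 107 in TSA late and 108 in untreated late embryos, with both levels in FPKM, which is per length. The median pair in untreated late embryos had 0.87 FPKM for the small RNA and 64.3 FPKM for the host. In that column 21 small RNAs were listed at 0 although their host had 10 FPKM or more.

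The exceptions above their host were few. Scarna6 exceeded Atg16l1 before the late stage, with 18.9 against 5.08 FPKM in early and 7.97 against 4.46 FPKM in 1-cell embryos. Scarna13 exceeded Snhg10 in TSA late embryos, with 26.8 against 12.6 FPKM. Snord22 exceeded Snhg1 in early embryos, with 3.85 against 1.61 FPKM. Snora78 exceeded Snhg9 in all 4 columns, with 6.05 against 0.29 FPKM in untreated late embryos, but its bases lie also inside Rps2, an abundant ribosomal protein gene at 316 FPKM in that column.

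Small RNAs of the same host often had unequal levels. Within Rpl23a, Snord42b had 43.1 and 24.0 FPKM, Snord4a 1.39 and 2.72 FPKM, and Snord42a 0 and 1.71 FPKM, again in TSA late and then untreated late embryos. The 4 small RNAs within Rpl13a ran from 3.21 to 9.21 FPKM in TSA late and the lowest in untreated late embryos was Snord32a at 0.88 FPKM, while Rpl13a stood at 412 and 485 FPKM in the same order. The 4 within Snhg12 (Snora16a, Snora44, Snora61 and Snord99) stayed under 1 FPKM in every column. Of the 18 rows at 0 throughout, several lay in well-expressed hosts, such as Snord14c and Snord14d within the heat shock gene Hspa8, which had 174 FPKM in TSA late and 103 FPKM in untreated late embryos.

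**Figure D3:**
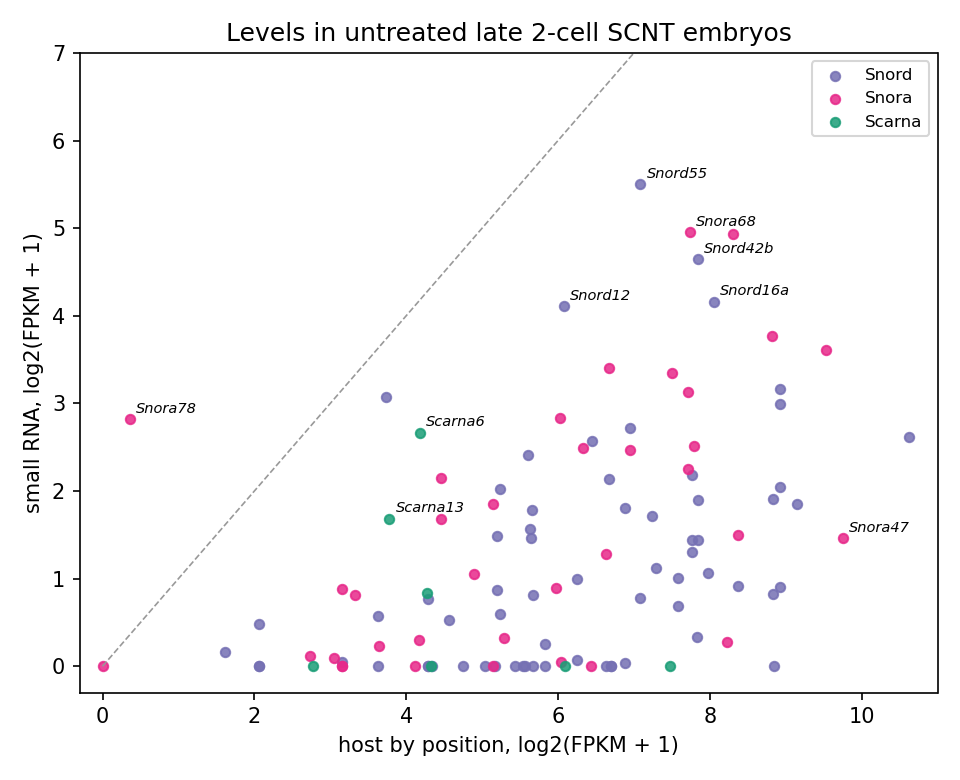
Level of each small RNA (vertical axis) against the gene that contains it (horizontal axis) in untreated late 2-cell embryos, both as log2(FPKM + 1), for 110 pairs, with the dashed line marking equal levels. Of the pairs, 108 lie below the line, and Snora78 is the 1 above it.

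Early 2-cell embryos were compared with 1-cell embryos, both untreated, to describe the first cleavage. A gene was kept where it had at least 1 FPKM in either column and was counted as higher or lower at a difference of 1 on the log2(FPKM + 1) scale, which is 2-fold on that scale. Of the small RNAs, 19 of 29 kept were at least 2-fold higher in early embryos and 0 were at least 2-fold lower, against a background over 10117 genes of 3.72% higher and 7.12% lower. Of the 29, 22 reached 1 FPKM in the early column alone, and such a row had to lie above 0, so the count is partly set by the filter. Without the filter, 60 of all 119 lay above 0, 14 below and 45 were equal. Those above made up 81.1% of the unequal ones, against 44.8% over all genes. These signs include small RNAs with positive values under 0.01 FPM, 16 in 1-cell and 9 in early embryos, whose direction is uncertain. Of genes with 1 to 10 FPKM in the higher column, 4.72% were higher and 4.42% lower, against 18 and 0 of 28 small RNAs in that range. Of 1211 other genes with a span of up to 300 bases, 16 were higher and 4 lower of 36 kept, of which 23 reached 1 FPKM in the early column alone, and without the filter 156 lay above 0 and 176 below.

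Snora31, within Tpt1 (translationally controlled tumor protein), had 6.27 FPKM in early, against 0.47 FPKM in 1-cell embryos, a difference of 2.31. Snora7a differed by 1.83, Snora70 by 1.19 and Scarna6 by 1.15. Snora47, within Zbed3, had 4.68 FPKM in early, against 5.38 FPKM in 1-cell embryos, a difference of -0.17. These were the only 5 small RNAs with 5 FPKM or more in a column of this comparison, and 4 of them were at least 2-fold higher. Zbed3 itself stood at 1832 FPKM in early and 1424 FPKM in 1-cell embryos, so the host of Snora47 stood far above it. Under 5 FPKM, chosen after their values were seen, Snora78 had 3.22 FPKM in early and 0.08 FPKM in 1-cell embryos, a difference of 1.97, and Snord52 had 4.71 and 0.48 FPKM in the same order, a difference of 1.95. By class, 10 of 16 Snord, 8 of 12 Snora and 1 of 1 Scarna rows kept were at least 2-fold higher.

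Of the Snhg genes, 5 of 12 kept (41.7%) were at least 2-fold higher in early than in 1-cell embryos and 0 were lower. Over all genes 3.72% were higher and 7.12% lower. Over all 15, 14 (93.3%) lay above 0, against 44.8% of the unequal values over all genes. The exception was Snhg14 at -0.45. The median of the 12 was 0.81, against -0.08 over all genes kept. Snhg4 led with a difference of 2.36, before Snhg3 at 1.38, Snhg7 at 1.25, Snhg10 at 1.15 and Snhg20 at 1.07. The other hosts by position had 8 higher (12.3%) and 5 lower (7.69%) of 65 kept, and a median of 0.16. Their share of lower genes was thus close to the 7.12% of all genes. The 5 lower ones, chosen after their values were seen, were Nop58 at -1.32, Nop56 at -1.28, Ncl (nucleolin) at -1.28, Rpl17 at -1.18 and Hspa8 at -1.04. Nop56, Nop58 and Ncl encode nucleolar proteins and contain 2 small RNAs each.

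Late 2-cell embryos were compared with early 2-cell embryos, both untreated, to describe the time of genome activation. The comparison shares the early column with the one before. Of the small RNAs, 32 of 60 kept were at least 2-fold higher in late embryos and 5 were at least 2-fold lower, against a background over 12794 genes of 47.9% higher and 10.9% lower. With genes kept at 1 FPKM, the share of small RNAs was thus close to that of all genes, at 53.3% higher and 8.33% lower. The median of those kept was 1.07, against 0.92 over all genes. With a minimum of 5 FPKM the small RNAs stood further above all genes, as given in the closing section. Of the 60, 32 reached 1 FPKM in the late column alone. Of all 119, 81 lay above 0, 13 below and 25 were equal. Those above made up 86.2% of the unequal ones, against 70.5% over all genes. In the range of 1 to 10 FPKM, 45.7% of genes were higher and 7.3% lower, against 23 and 4 of 50 small RNAs.

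Snord55 had the largest difference of the small RNAs with 5 FPKM or more, at 5.27. Snora68 differed by 3.26, Snord16a by 3.04, Snora28 by 2.85, Snord104 by 2.72 and Snora64 by 2.70. Rpl4, Eif5 and Rps2, the hosts of Snord16a, Snora28 and Snora64, had differences between 2.31 and 3.02. Scarna6 was the only one of the 21 small RNAs with 5 FPKM or more that was lower in late embryos, with a difference of -1.65 and with 5.36 FPKM in late against 18.9 FPKM in early embryos, while Atg16l1 was higher by 1.58. Next above it were Snora31 at 0.26, Snora70 at 0.51, Snora78 at 0.74, Snord22 at 0.80 and Snora7a at 1.01. The other 4 rows at least 2-fold lower, chosen after their values were seen, were under 5 FPKM in both columns: Snora17 (within Snhg7) had 0 in late and 2.03 FPKM in early embryos, Snord123 (within Snhg18) 0 and 1.17 FPKM, Snora47 1.76 and 4.68 FPKM, and Snord83b (within Rpl3) 0.19 and 1.39 FPKM in the same order. Snhg7 and Snhg18 around them differed by 3.08 and 0.72 between the same columns. By class, 20 of 37 Snord, 11 of 21 Snora and 1 of 2 Scarna rows kept were at least 2-fold higher.

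Of the Snhg genes, 10 of 14 kept (71.4%) were at least 2-fold higher in late than in early embryos and 0 were lower. Over all genes 47.9% were higher and 10.9% lower. The median of the Snhg genes was 2.17, against 0.92 over all genes. After Snhg17 at 5.70 and Snhg5 at 3.29 came Snhg7 at 3.08, Snhg20 at 2.67, Snhg12 at 2.39, Snhg11 at 2.37, Snhg1 at 2.34, Snhg6 at 2.00, Snhg3 at 1.76 and Snhg8 at 1.43. Snhg4 at 0.94, Snhg18 at 0.72, Snhg14 at 0.71 and Snhg10 at -0.67 did not reach 2-fold. The other hosts by position had 57 higher and 2 lower of 69 kept, and a median of 2.43. In pairs, the host had the larger median difference, at 2.34 for the host against 1.01 for the small RNA over 57 pairs in 46 hosts. In 25 pairs both were at least 2-fold higher, and in 4 the small RNA alone was.

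Late 2-cell embryos treated with TSA were compared with untreated late 2-cell embryos, to ask how inhibition of histone deacetylases went with the levels of these genes. The comparison shares the untreated late column with the one before. Among 59 small RNAs kept, 7 stood at least 2-fold above untreated late embryos and 12 at least 2-fold under them, against a background over 12756 genes of 2.51% higher and 4.08% lower. In percent of those kept this was 11.9% higher and 20.3% lower, so both shares lay above those of all genes. Of the 59, 17 reached 1 FPKM in 1 of the columns alone, 4 of them with TSA and 13 without. Among genes with 1 to 10 FPKM in the higher column the shares were 3.11% and 5.63%, against 6 and 11 of 47 small RNAs. Other short genes also had large shares on both sides, with 13 higher and 13 lower of 85 kept (15.3% each). Over all 119 small RNAs, 38 lay above 0, 59 below and 22 were equal. Those above made up 39.2% of the unequal ones, close to the 43.1% over all genes. The median of the small RNAs kept was -0.19, against -0.08 over all genes. It was 0.30 with a minimum of 5 FPKM in a column, where 3 were higher and 3 lower of 27. Over all genes with that minimum the median was -0.06, with 2.11% higher and 3.30% lower. Median-ratio scaling of the columns gave 8 higher and 8 lower of 55 small RNAs, against 3.28% and 2.35% of all genes. Quantile normalization gave 8 higher and 5 lower of 51, against 3.02% and 2.59% of all genes.

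Scarna13, with 26.8 FPKM in TSA late and 2.22 FPKM in untreated late embryos, had the largest difference on the higher side, at 3.11. Snhg10 around it had 12.6 FPKM in TSA late and 12.7 FPKM in untreated late embryos, a difference of -0.01. Scarna13 was thus higher in a host whose own level was nearly equal in both columns. Snora52, within Rplp2, had 5.52 FPKM in TSA late and 1.43 FPKM in untreated late embryos, a difference of 1.42. Snord17, within the sorting nexin gene Snx5, had 6.34 FPKM in TSA late and 2.45 FPKM in untreated late embryos, a difference of 1.09. Snora2b at 0.97, Snord96a at 0.82 and Snord42b at 0.82 came next and did not reach 2-fold. The other 4 small RNAs past 2-fold upward, chosen after their values were seen, were under 5 FPKM in both columns: Snord66 (within Eif4g1) had 4.62 FPKM in TSA late and 0 in untreated late embryos, Snord95 (within Rack1) 3.81 and 0.51 FPKM, Snord32a 3.32 and 0.88 FPKM, and Snora47 4.97 and 1.76 FPKM in the same order.

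Snord12, with 0.68 FPKM in TSA late and 16.2 FPKM in untreated late embryos, had the largest difference on the lower side, at -3.36. Zfas1 around it had 36.1 FPKM in TSA late and 66.4 FPKM in untreated late embryos, a difference of -0.86. Snord100, within Rps12, had 0.98 FPKM in TSA late and 5.58 FPKM in untreated late embryos, a difference of -1.73. The other small RNA of Rps12, Snora33, chosen after its values were seen, had 0.19 FPKM in TSA late and 4.53 FPKM in untreated late embryos, a difference of -2.22, while Rps12 had 97.8 and 123 FPKM in the same order. Both small RNAs of this host were therefore lower with TSA. Snord22, within Snhg1, had 3.16 FPKM in TSA late and 7.43 FPKM in untreated late embryos, a difference of -1.02. Snord104 at -0.92, Snora81 (within Eif4a2) at -0.71 and Snora78 at -0.70 did not reach 2-fold. Among the other lower rows, also chosen after their values were seen, Snora3 (within Rpl27a) had 1.28 FPKM in TSA late and 4.73 FPKM in untreated late embryos, and Snord42a, Snord67 and Snora41 were listed at 0 in TSA late embryos, with 1.71, 1.17 and 1.08 FPKM in untreated late embryos. By class, 4 of 37 Snord rows kept were at least 2-fold higher and 6 lower, 2 of 20 Snora rows were higher and 6 lower, and 1 of 2 Scarna rows was higher.

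Of the Snhg genes, 0 of 14 kept passed 2-fold upward with TSA, against 2.51% of all genes. Downward, 1 of the 14 (7.14%) passed it, against 4.08% of all genes. That gene was Snhg4, with 31.0 FPKM in TSA late and 79.1 FPKM in untreated late embryos, a difference of -1.32. Snora74a, which lies within it and was chosen after its values were seen, had 0.59 FPKM in TSA late and 4.64 FPKM in untreated late embryos, a difference of -1.83. This was the only pair in which both were at least 2-fold lower. Of all 15 Snhg genes, 12 lay below 0 and 3 above, namely Snhg14 at 0.46, Snhg5 at 0.08 and Snhg20 at 0.04. Those above made up 20% of the Snhg genes, against 43.1% of the unequal values over all genes. The median of the Snhg genes kept was -0.33, against -0.08 over all genes. It stayed below that of all genes by 0.24 to 0.31 under both rescalings of the columns. The other hosts by position had 1 higher and 0 lower of 69 kept, with a median of -0.06. The 1 higher was Rbmx, with 95.7 FPKM in TSA late and 42.1 FPKM in untreated late embryos, and Snord61 lies within it.

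**Figure D4:**
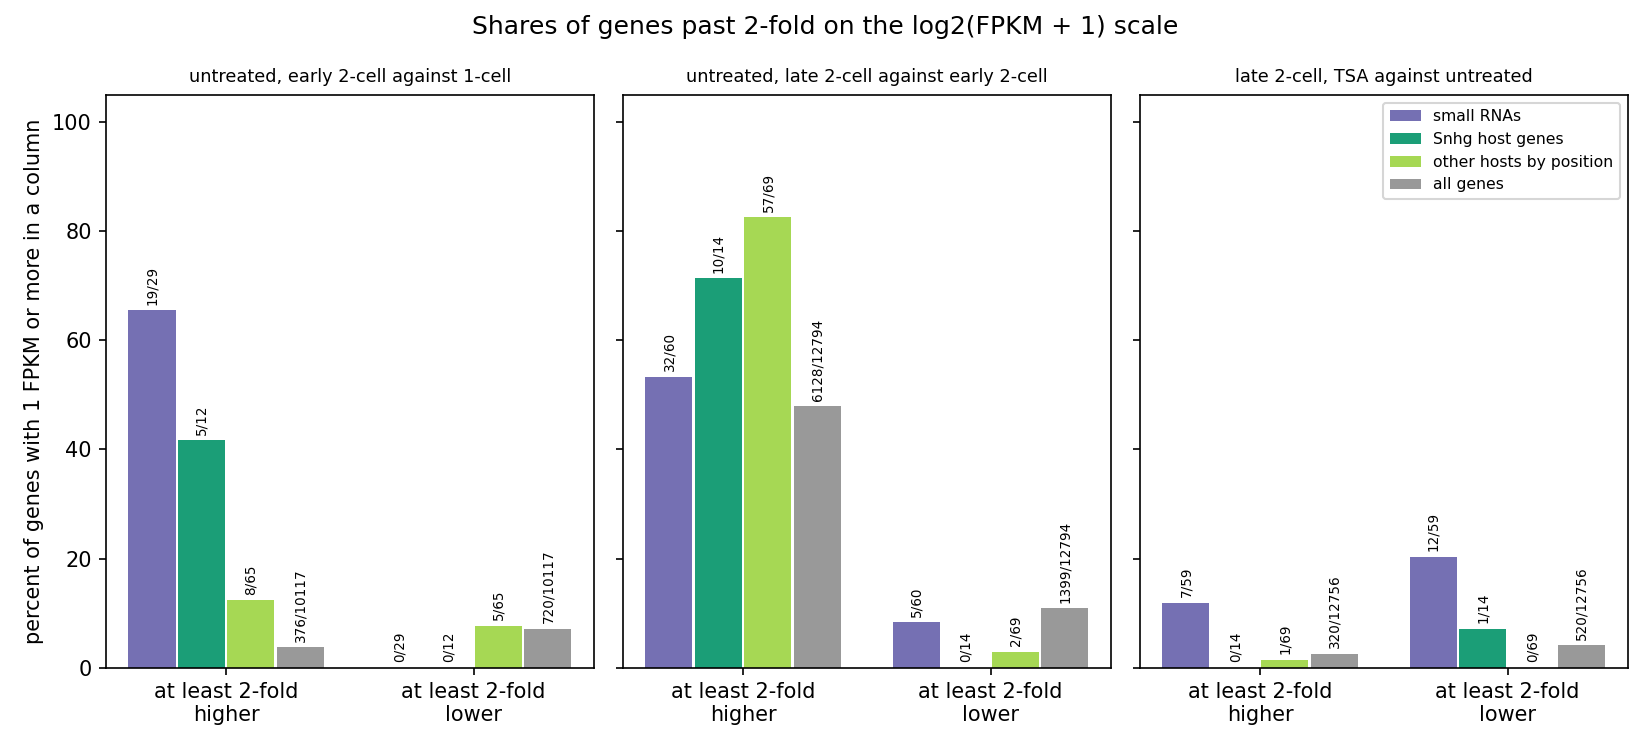
Percent of genes kept that were at least 2-fold higher or lower on the log2(FPKM + 1) scale, in each of 3 comparisons, for small RNAs, Snhg host genes, other hosts by position and all genes, with the counts above the bars. In the TSA comparison 7 of 59 small RNAs are higher and 12 lower, against 2.51% and 4.08% of all genes.

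Differences of a small RNA and of its host were weakly related across pairs. Pearson's r was -0.08 over 28 pairs for early against 1-cell, 0.23 over 57 pairs for late against early and 0.28 over 56 pairs for TSA late against untreated late embryos. All pairs of a comparison come from the same 2 columns, and several share a host, so these values only describe the table. With TSA, the hosts of the 7 higher small RNAs all lay within 2-fold, as did the hosts of 11 of the 12 lower ones. Over all 56 pairs the host was at least 2-fold higher in 0 and at least 2-fold lower in 1. Nearly any choice of pairs would therefore have hosts within 2-fold.

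**Figure D5:**
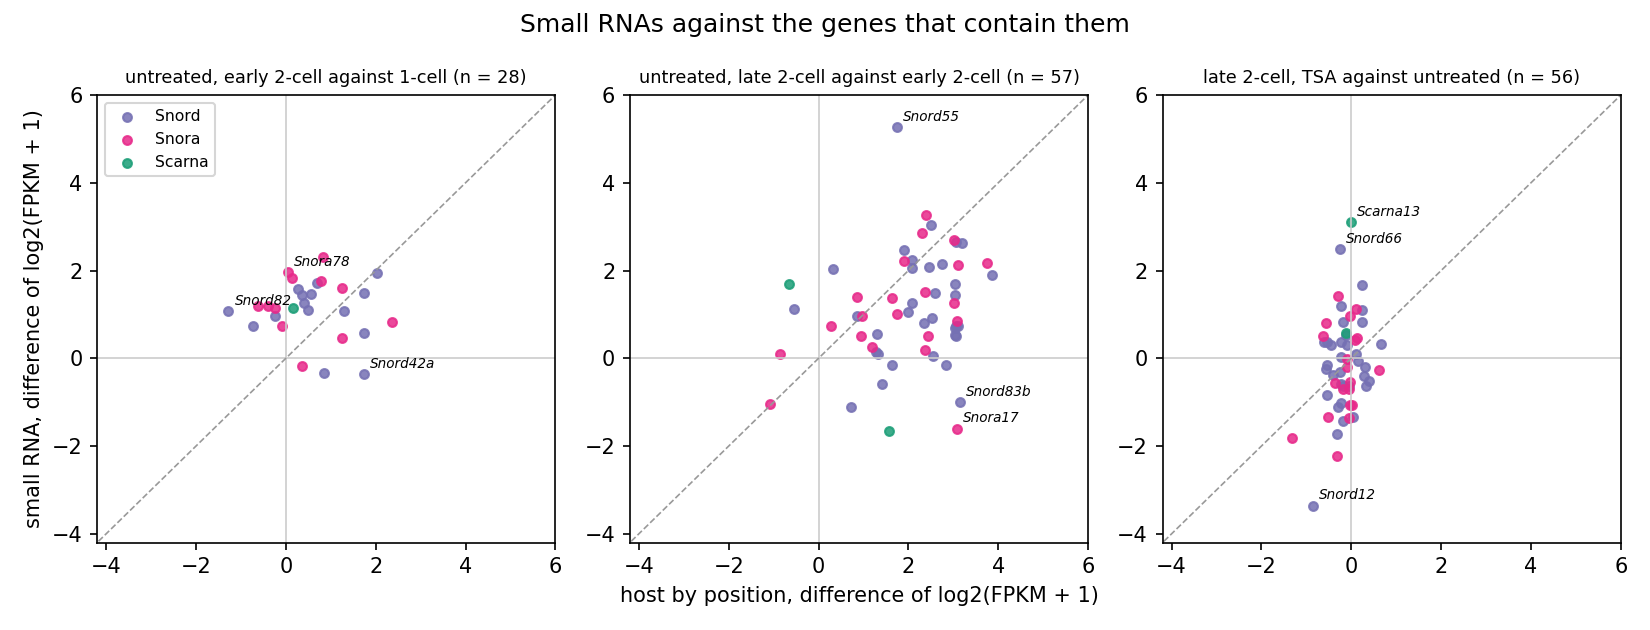
Difference of log2(FPKM + 1) of each small RNA (vertical axis) against that of the gene that contains it (horizontal axis), for 28, 57 and 56 pairs in 3 comparisons, with the dashed line marking equal differences and the 3 pairs furthest from it named. In the TSA panel the hosts lie between -1.32 and 0.65, while the small RNAs reach from -3.36 to 3.11.

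The proteins that bind these RNAs were read from lists of other genes of the pathway. In late against early embryos 47.9% of all genes were at least 2-fold higher, 10.9% were lower and the median was 0.92. In early against 1-cell embryos 3.72% of all genes were higher and 7.12% lower, and with TSA 2.51% and 4.08%. Of the 4 box C/D core proteins measured, 4 were at least 2-fold higher in late than in early embryos, with a median of 2.35. Nop56 led with 117 FPKM in late and 13.4 FPKM in early embryos, a difference of 3.04, and Nhp2l1, at 1.60, was the least. Between early and 1-cell embryos, 0 were higher and 2 (Nop56 and Nop58) lower in early embryos. Fbl, the methyltransferase of this complex, was the highest there at 0.69. With TSA 0 of 4 passed 2-fold in either direction, and the values lay between -0.02 for Nhp2l1 and 0.38 for Nop58.

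Of the 4 box H/ACA core proteins, 3 were at least 2-fold higher in late than in early embryos, from Gar1 at 0.99 to Nhp2 at 3.39. Neither early against 1-cell embryos nor the TSA comparison had a member past 2-fold (0 of 4 each). Dkc1, the pseudouridine synthase, was the lowest of them in early against 1-cell embryos at -0.83 and the highest with TSA at 0.33. Nop10 was the lowest with TSA, at -0.64, with 61.5 FPKM in TSA late and 96.4 FPKM in untreated late embryos.

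Of the factors that assemble these particles, 9 of 10 kept were at least 2-fold higher in late than in early embryos and 0 lower, against 47.9% of all genes higher. Znhit3 led at 3.59, and Naf1 was the lowest at -0.75. Early embryos had 0 of 9 higher and 1 lower than in 1-cell embryos, which was Znhit6 at -1.98, while Znhit3 at 0.99 was just under 2-fold. With TSA 0 of 10 passed 2-fold, and all 10 lay above 0, from Rpap3 at 0.05 to Pih1d1 at 0.70. Their median was 0.42, against -0.08 over all genes, and all 10 also lay above 0 under both rescalings. Over all genes kept, 5518 of 12756 lay above 0 as deposited. Of 8 kept genes of Cajal bodies and telomerase RNA transport, 7 were at least 2-fold higher in late than in early embryos, with Gemin5 highest at 4.40 and Smn1 lowest at -0.41. In early against 1-cell embryos 0 of 6 passed 2-fold, from Tert at -0.93 to Gemin5 at 0.17, and with TSA 0 of 8 did, from Gemin2 at -0.26 to Phax at 0.38.

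Of 18 genes that trim or degrade intron and small RNA ends, 9 were at least 2-fold higher and 1 lower in late than in early embryos, a share close to that of all genes, with a median of 1.45. Exosc5, of the RNA exosome, led at 4.84, and Mphosph6 was the lowest at -3.05, with 260 FPKM in late and 2156 FPKM in early embryos. At the early stage 1 was higher than in 1-cell embryos (Toe1 at 1.06) and 2 were lower, with Exosc9 lowest at -1.40. With TSA 0 of 18 passed 2-fold, from Papd5 at -0.76 to Exosc5 at 0.64. Of 10 genes of nonsense-mediated decay, 5 were at least 2-fold higher in late than in early embryos and 0 lower, again close to the share of all genes, with a median of 1.04 and values from Upf1 at -0.22 to Smg5 at 2.64. At the early stage 0 of 8 passed 2-fold against 1-cell embryos, from Upf3b at -0.91 to Upf2 at 0.19. With TSA 0 of 10 did, from Smg9 at -0.75 to Smg8 at 0.65. Under quantile normalization the count higher in late than in early embryos was 3 of 4 for the box C/D core, 1 of 4 for the box H/ACA core, 7 of 10 for assembly, 6 of 7 for Cajal bodies, 9 of 18 for end trimming and 1 of 10 for nonsense-mediated decay, against 26.8% of all genes. The median of all genes was then -0.14 and that of nonsense-mediated decay -0.01, which is 0.13 above all genes, beside 0.12 above them as deposited.

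Another list held 9 genes, most of them noncoding, of which Gas5 and Dancr contain a small RNA of this set. Gas5, which spans Snord47, had 3.61 FPKM in 1-cell, 7.95 FPKM in early, 31.9 FPKM in TSA late and 47.9 FPKM in untreated late embryos. Dancr, which spans Snora26, had 0.31, 1.41, 4.60 and 7.30 FPKM in the same order. Both were highest in untreated late embryos. Of the 5 kept with TSA, 1 was at least 2-fold higher and 0 lower, against 2.51% and 4.08% of all genes, with a median of -0.57. The higher one was Snurf, with 38.2 FPKM in TSA late and 0.01 FPKM in untreated late embryos, whereas Snrpn had 48.7 FPKM in TSA late and 92.4 FPKM in untreated late embryos. Snurf and Snrpn share a transcript, so the division of reads between them is uncertain. In late against early embryos 4 of 5 were at least 2-fold higher, led by Gas5 at 2.45, against 47.9% of all genes. Snurf was lower there, at -3.25. In early against 1-cell embryos 1 of 4 was at least 2-fold higher, against 3.72% of all genes. That gene was Snurf at 1.23, and Snrpn was lowest at 0.38.

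Markers of other cells also differed between the late columns. The 10 markers of cumulus and granulosa cells, the donor type, summed to 27.9 FPKM in TSA late and 82.0 FPKM in untreated late embryos. With TSA 3 of the 4 kept were at least 2-fold lower, down to Lgals1 at -2.14, against 4.08% of all genes. Most of this sum was Anxa2, at 23.6 FPKM in TSA late and 67.0 FPKM in untreated late embryos, and over all 10 markers 4 lay above 0 and 6 below. The 5 blood markers summed to 68.9 FPKM in TSA late and 47.4 FPKM in untreated late embryos, with the globin gene Hbb-bs listed at 0 in all 4 columns. Of the 3 blood markers kept, Lyz2 was at least 2-fold higher with TSA at 1.79, Cd52 was at least 2-fold lower at -1.14, and Hba-a1, which made up most of the sum, had 49.96 FPKM in TSA late and 32.9 FPKM in untreated late embryos. In 1-cell embryos the sums were 17.2 and 0.48 FPKM and in early embryos 15.0 and 0.46 FPKM for the cumulus and the blood markers. Fewer cells of a type and less RNA per cell cannot be told apart in such bulk samples. Neither can RNA of such cells be told apart from RNA made by the embryo itself. The part of these markers in the differences of the small RNAs and Snhg genes was not tested.

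How many genes lay on the higher side depended on how the columns were scaled. Median-ratio scaling moved the median of all genes by 0.14 with TSA, by 0.13 in early against 1-cell and by -0.50 in late against early embryos, and quantile normalization moved it by 0.08, 0.10 and -1.05 in the same order. Of all genes past 2-fold, the share on the higher side was 38.1% with TSA as deposited, against 58.2% and 53.8% under the 2 rescalings. In early against 1-cell embryos it was 34.3%, against 48.9% and 47.3%, and in late against early embryos 81.4%, against 65.9% and 49.1%. Relative to the median of all genes, the Snhg genes stood at 1.25 in late against early embryos as deposited, at 1.21 after median-ratio scaling and at 1.36 after quantile normalization. In early against 1-cell embryos they stood at 0.89, 0.87 and 0.87 in the same order. The small RNAs stood at 1.23, 1.09 and 1.21 in early against 1-cell embryos and at 0.15, 0.31 and 0.17 in late against early embryos. After quantile normalization, 53 of all 119 lay above 0 and 41 below in late against early embryos, against 9262 and 9474 over all genes.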

How the data were processed

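RNA of SCNT embryos was measured by sequencing of poly(A) RNA. The authors deposited 1 table of log2(FPKM + 1) values, with the unit per the file headers, and the FPKM used here were computed back from these deposited values. The submitters' processing notes name HISAT2 2.1.0, StringTie 1.3.4, Cufflinks and SAMtools 1.7, without their roles, and the build mm10. The sources used here do not say how the libraries became 1 column per group. Of the value columns, 4 were used and 2 were not.

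Differences are the first group minus the second on the log2(FPKM + 1) scale, with genes kept at 1 FPKM or more in either column and counted from a difference of 1. This scale understates differences of low genes. The planned limma test needs a column per library, which the table lacks, so no test was made. The counting code was run on copies of a column with changes planted in well-expressed genes and no noise. That run checked only the arithmetic and says nothing about low rows. Positions, hosts and promoters come from RefSeq (GRCm38.p6). A host is the shortest other gene whose span contains the small RNA, irrespective of strand, since the tables used give no strand for the small RNAs. Named were all Snhg genes, the 5 most abundant small RNAs per class, per comparison the 6 highest and 6 lowest with 5 FPKM or more, the extremes of each list, and the hosts. The members, lists and rules were chosen with earlier results of these data known. Python 3.11.15, pandas 2.3.3 and NumPy 2.4.6 were used. Alternatives covered the pseudocount, the filter on low values and the scaling of the columns. The chromatin libraries and the Dux group were not analysed here, and some hosts are not reported here.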

Additional observations from a re-analysis of the deposited data

How the results depend on the processing

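No paired analysis was possible because the table holds 1 value per gene and group, so the planned replicate block was not run, and no library could be left out. Of the medians and counts of small RNAs and Snhg genes, 89 values under an alternative stayed within 1.5 times and in the same direction, 36 moved further and 1 reversed. With a minimum of 5 FPKM the small RNAs in the TSA comparison had a reversed median of 0.30, with 3 higher and 3 lower. Under that minimum 4 small RNAs and 2 Snhg genes were higher in early against 1-cell. In late against early the 21 small RNAs kept had a median of 2.20, with 16 higher and 1 lower. Over all genes with that minimum the median was 1.02, with 50.5% higher and 13.2% lower. A pseudocount of 5 FPKM gave the small RNAs medians of -0.11 with TSA (1 higher, 1 lower), 0.38 in early against 1-cell (1 higher) and 0.42 in late against early (11 higher, 1 lower), and the Snhg genes medians of 0.49 (1 higher) and 1.24 in the stage comparisons. A pseudocount of 0.1 FPKM gave the small RNAs 2.45 and 1.73 in the stage comparisons. With no filter their medians were -0.0645 with TSA, 0.44 in early against 1-cell and 0.70 in late against early. Median-ratio scaling gave medians of -0.0348 for the small RNAs and -0.18 for the Snhg genes with TSA, and 1 Snhg gene lower in late against early. Quantile normalization gave the small RNAs -0.0495 with 5 lower in the TSA comparison and 0.0378 with 8 lower in late against early, where the Snhg genes had 1.22 with 1 lower. A filter chosen after seeing the data, a mean of at least 1 FPKM over the 4 columns, gave the small RNAs -0.11 with 7 lower in the TSA comparison, 0.55 in early against 1-cell, and 2 lower in late against early. Of 480 values of 40 named genes, 422 stayed on the same side of 2-fold, 35 fell under it and 22 reached it. Snora7a, past 2-fold as deposited, reversed to -0.0664 in late against early under quantile normalization. Values under 2-fold could change sign without being counted as reversed. Of the Snhg genes, 14 lay above 0 in late against early as deposited and 11 after quantile normalization. Over all genes 13210 lay above 0 and 5531 below as deposited, and 9262 and 9474 after quantile normalization. The cause of these shifts was not tested. The unknown depth limits every row of a few fragments, and differences between 2 single columns carry no error.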
